A study of Homo sapiens with 6 samples.

Results

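Distal lung lineage genes were compared between A549 and H23, both human lung cancer cell lines. They were 10 genes taken by symbol from the deposited gene tables, which held 27968 genes: the transcription factor NKX2-1, the surfactant proteins SFTPB, SFTPC and SFTPD, the type 2 cell genes NAPSA, LPCAT1 and SLC34A2, and the type 1 cell genes HOPX, AGER and AQP5. RNA came from 3 separate A549 cultures grown in DMEM and 3 separate H23 cultures grown in RPMI, each medium with fetal bovine serum, and no culture was treated. Line and medium changed together, so a difference between the lines cannot be told apart from one between the media. Each line is 1 cell line derived from a tumour, and the labels call both only lung cancer lines, so a difference stands for these 2 lines and for no wider class of tumour. Total RNA was sequenced after ribosomal RNA removal with a stranded kit.

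The gas-exchange surface of the lung is covered by flat type 1 cells and by cuboidal type 2 cells. Type 2 cells make surfactant, a film of phospholipids and the surfactant proteins that keeps alveoli open, store it in lamellar bodies and also give rise to type 1 cells. The homeodomain factor NKX2-1 is required for lung formation and binds the promoters of the surfactant protein genes together with factors of the FOXA, GATA6 and C/EBP families; in lung adenocarcinoma its protein and that of NAPSA serve as diagnostic markers.

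The libraries held 24441832, 25348083 and 23399562 estimated read counts in A549, and 37295989, 29395795 and 42421642 in H23. In 1 A549 or H23 library, 3 counts, the floor used here for a gene with none, came to between 0.0706 and 0.129 CPM (counts scaled to library size). Replicate 1 of H23 stood apart: a chi-square comparison gave 106 and 136 per gene against the other two H23 libraries, against 5.53 between those and 3.79 to 4 between A549 libraries. The epithelial keratins KRT8 and KRT18 and the epithelial genes EPCAM, KRT19 and CDH1 were detected in both lines, with summed TPM (abundance scaled for length and depth) of 3330 to 3370 in A549 and 3980 to 4130 in H23. Of the markers that define other cells, PTPRC, CD3E and HBB (blood) had at most 1 count in any library, PECAM1 and KDR (endothelium) at most 2, and COL1A2 and DCN (fibroblasts) at most 4. Other genes on these marker lists had counts: CD14 had 88 to 92 per library in A549 and 87 to 134 in H23, and COL1A1 had 193 to 207 in A549 and 672 to 990 in H23. CD68 averaged 3.69 TPM in A549 and 6.87 TPM in H23, and VWF had no count in A549 and 10, 30 and 29 counts in H23. Over the whole lists the summed TPM was 5.96 to 6.74 in A549 and 6.50 to 13.7 in H23 for blood, 0.15 to 0.19 in A549 and 0.24 to 0.57 in H23 for endothelium, and 2.25 to 3.02 in A549 and 6.35 to 10.2 in H23 for fibroblasts. Their part in the results was not tested.

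Both lines had few or no counts for most of the 10 genes, and the few genes with a level differed between them in unlike directions. Mean TPM reached 1 or more for 1 of the 10 genes in A549 (LPCAT1) and for 4 of them in H23 (LPCAT1, AGER, NKX2-1 and NAPSA). In A549, 3 genes had no count in any library and in H23 2 had none, and 5 genes in each line summed to 3 or fewer counts over the 3 libraries. Only 4 of the 10 passed the filter on low counts and were tested. NKX2-1 passed it through H23 alone, with no count in A549, so that it differed was fixed by the filter and it is left out of the counts of calls. At a Benjamini-Hochberg adjusted p under 0.05 (edgeR, quasi-likelihood F test), 2 of the other 3 differed, against 77.2% of the 15426 genes tested. LPCAT1 was higher in A549, where 37.6% of all tested genes were higher, and AGER was lower in A549, where 39.6% were lower. The A549 and H23 libraries did not overlap, in CPM, for LPCAT1 and AGER and for 82.0% of all genes tested. A call or a lack of overlap was therefore the usual outcome in this pair of lines. In bulk RNA, fewer cells with a transcript and less transcript in each cell cannot be told apart.

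**Figure D1:**
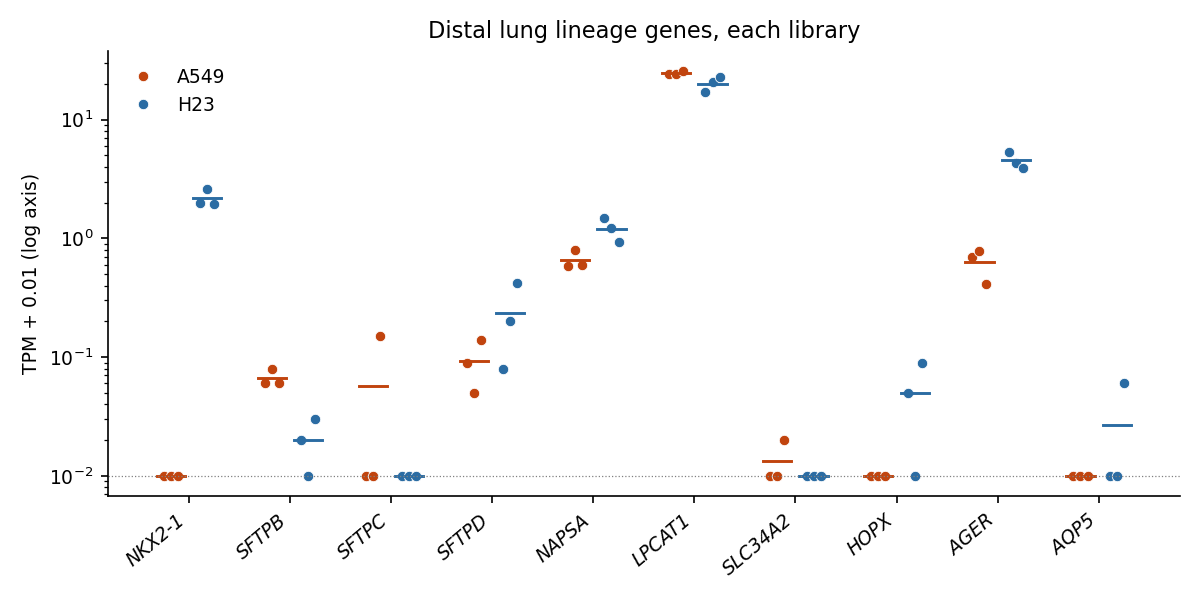
TPM of the 10 distal lung lineage genes in each library, plotted as TPM + 0.01 on a log axis, A549 left of H23; points are libraries and bars are means. LPCAT1 lies between 17.15 and 25.63 TPM over both lines, NKX2-1 and AGER lie higher in H23, and the surfactant protein genes, SLC34A2, HOPX and AQP5 lie under 1 TPM in both.

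NKX2-1, the regulator at the head of the distal lung programme, had no count in any A549 library and was detected in every H23 library. Its estimated counts were 0, 0 and 0 in A549, against 106.86, 102.57 and 110.03 in H23. In TPM, a per-length level, this was 0, 0 and 0 in A549 and 1.98, 2.61 and 1.95 in H23 (mean 2.18 ± 0.373, SD, n = 3). The lines did not overlap, and the level was even among the H23 libraries. NKX2-1 was at least 69.8-fold lower in A549 in CPM, taking 3 counts over the A549 libraries as the limit. No p and no fitted fold are given for NKX2-1, since it entered the test through H23 alone and its fitted fold rests on the prior count. For a single A549 library, 3 counts would be 0.0597 to 0.0689 TPM, so a level below that was not detectable. H23's NKX2-1 was itself modest: 59.5% of all listed genes had a lower mean TPM there.

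Both RefSeq transcripts of NKX2-1 in the tables had counts in H23. They differ in their start: in the GENCODE annotation of GRCh38, NM_001079668 begins at an upstream start and NM_003317 at a downstream one. NM_003317, of 2336 bases, took 59.2%, 63.8% and 80.8% of the gene's estimated counts in H23 replicates 1, 2 and 3. NM_001079668, of 2181 bases, took the remaining 40.8%, 36.2% and 19.2%. The downstream-start transcript held the larger share in each H23 library, and since the transcripts share most of their sequence this division is RSEM's estimate. The 2 stretches upstream of these starts are shown because the H23 counts are divided between them. Both are from RefSeq and are cut where they would enter an annotated exon, and capitals mark CAAG, the core of the sequence that NKX2 factors bind, or CTTG, its complement.
NKX2-1 upstream of the upstream start, chr14:36520287-36520482, GRCh38.p14, minus strand: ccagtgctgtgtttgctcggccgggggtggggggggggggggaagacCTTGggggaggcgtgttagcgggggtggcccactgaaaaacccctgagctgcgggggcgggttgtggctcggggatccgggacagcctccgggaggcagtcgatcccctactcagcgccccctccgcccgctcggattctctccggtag
NKX2-1 upstream of the downstream start, chr14:36519694-36519806, GRCh38.p14, minus strand: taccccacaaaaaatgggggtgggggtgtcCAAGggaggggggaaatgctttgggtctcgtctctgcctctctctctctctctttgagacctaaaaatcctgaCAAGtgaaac
Windows of 300 bases were taken around RefSeq starts, 250 bases before to 50 after. For the downstream start, 137 bases separate the end of the stretch shown from the RefSeq start. This window thus reaches into NM_003317 as GENCODE places it. It held CAAG or its complement 6 times, 2 of them in the stretch shown. It held the longer CAAGTG 1 time and TGTTTAC, a forkhead-type sequence that FOXA factors can bind, 1 time. CAAG is contained in CAAGTG, and both strands were searched. The window around the upstream start held CAAG 1 time and neither of the others. Of 35116 promoter windows of this length in RefSeq, 86.0% held CAAG, 11.5% CAAGTG and 3.42% TGTTTAC, so these are descriptions of the letters present.

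**Figure D2:**
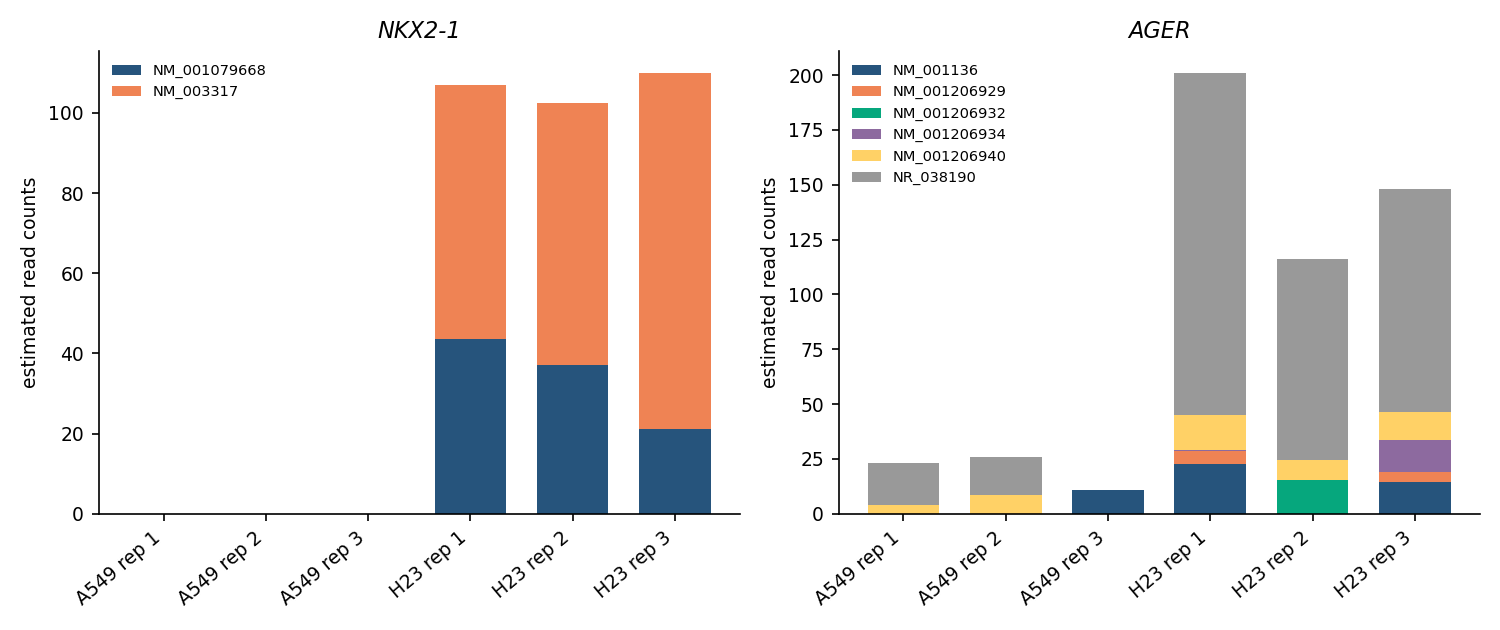
Estimated read counts (stacked bars) of the RefSeq transcripts of NKX2-1 and AGER in each library, A549 left of H23. NKX2-1 counts lie in H23 alone, with NM_003317 the larger part in each library, and most AGER counts lie on the non-coding NR_038190 except in A549 replicate 3.

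NKX2-1-AS1, the antisense gene that overlaps NKX2-1, had 0 estimated counts in each A549 library, against 9.14, 2.43 and 9.97 in H23, at least 4.71-fold lower in A549. NKX2-1 and NKX2-1-AS1 summed to whole counts in H23, 116, 105 and 120, with 7.88%, 2.31% and 8.31% on the antisense gene. Reads of the pair had thus been divided between them, although the kit keeps strand. The strand setting is not given in the sources used here. The shares are RSEM's estimate, and the error they leave in the H23 values of NKX2-1 was not measured. The other 9 distal lung genes had whole counts in every library (tolerance 0.005).

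The tested genes beside NKX2-1 on chromosome 14 were lower in A549 or did not pass the test. Of 8 listed, 6 were tested: 0 were higher in A549, 4 were lower and 2 did not pass. Over all tested genes 37.6% were higher and 39.6% lower. With 1 library left out at a time, 0 to 1 of the genes beside NKX2-1 were higher. NKX2-8, a related homeodomain factor, averaged 0.47 ± 0.0361 TPM in A549 and 4.57 ± 1.04 TPM in H23 (log2 fold -2.72 ± 0.21, SE, adjusted p = 2.94e-05, edgeR). PAX9, a paired-box factor, averaged 0.54 TPM in A549 and 2.8 TPM in H23 (-1.84 ± 0.23, adjusted p = 0.000275, edgeR). MBIP and SLC25A21 had log2 folds of -1.05 and -0.97, while BRMS1L (-0.16, adjusted p = 0.495) and RALGAPA1 (0.48, adjusted p = 0.136) did not pass edgeR's test. SFTA3, which lies beside NKX2-1, had 0 counts in A549 and 1 in H23. Neighbours of NKX2-1 other than its antisense gene and SFTA3 were thus transcribed in A549, where NKX2-1 was listed at 0. Copy number was not measured here, and its part in these differences was not tested.

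The surfactant protein genes were at the limit of detection in both lines. SFTPB, whose hydrophobic protein is needed to spread the surfactant film, had 4, 6 and 3 counts in A549 and 1, 0 and 2 in H23. In TPM it was 0.05, 0.07 and 0.05 in A549 and 0.01, 0 and 0.02 in H23. The A549 libraries all lay above the H23 libraries, by few counts. The counting ratio of A549 over H23 was 6.61 with an exact 95% interval of 1.82 to 36.2, which covers counting error only. SFTPB fell under the filter on low counts and was not in the main test; an exact two-sided permutation test over the libraries gave p = 0.1, the smallest that 3 against 3 can give. With no filter, edgeR's quasi-likelihood test gave a log2 fold of 2.58 and an adjusted p of 0.0202. Its mean level was 0.0567 TPM in A549 and 0.01 TPM in H23. The stretch before the downstream start of SFTPB is shown because this promoter has long been studied as a target of NKX2-1; capitals mark CAAG or CTTG as before.
SFTPB upstream of its downstream start, chr2:85668252-85668449, GRCh38.p14, minus strand: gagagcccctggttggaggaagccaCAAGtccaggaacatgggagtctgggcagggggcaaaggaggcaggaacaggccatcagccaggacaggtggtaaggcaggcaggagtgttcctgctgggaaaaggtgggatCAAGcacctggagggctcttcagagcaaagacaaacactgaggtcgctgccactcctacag
Its 300-base window held CAAG 3 times and neither CAAGTG nor TGTTTAC.

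SFTPD, a collectin of airway host defence, had 2, 1 and 3 counts in A549 and 2, 4 and 12 in H23. In TPM it was 0.08, 0.04 and 0.13 in A549 and 0.07, 0.19 and 0.41 in H23. The lines overlapped, the A549 over H23 ratio was 0.508 (95% interval 0.165 to 1.34), and the exact two-sided permutation p was 0.4. SFTPC, the surfactant protein made by type 2 cells alone, had 0, 0 and 2 counts in A549 and 0, 0 and 0 in H23; 3 counts would be 0.141 to 0.199 TPM in a single H23 library. SFTPA1 had no count in either line, and SFTPA2 had 1 count, in A549. No fold is given for SFTPC, SFTPA1 or SFTPA2, since both lines lay at or under the floor.

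NAPSA, the aspartic protease that cleaves the surfactant protein precursors in type 2 cells, was low in both lines and did not pass the test. It had 18, 26 and 17 counts in A549, against 52, 31 and 34 in H23. In TPM this was 0.57, 0.79 and 0.59 in A549 (mean 0.65 ± 0.122) and 1.46, 1.20 and 0.93 in H23 (mean 1.20 ± 0.265, SD, n = 3 each). The TPM values did not overlap, the CPM values did, and the log2 fold in CPM was -0.34 ± 0.29 (SE) with an adjusted p of 0.308 by edgeR. On the log2(TPM + 1) scale the difference was -0.41 with an adjusted p of 0.00944 (limma), which passed; on that scale the median of all tested genes was also -0.41, so NAPSA stood 0 from it. In the GENCODE annotation NAPSA lies within NR1H2, a nuclear receptor gene on the other strand, chosen here after its values were seen. NR1H2 averaged 49.5 ± 3.72 TPM in A549 and 42.2 ± 8.64 TPM in H23, far above NAPSA in both lines, and reads shared between the pair were not measured.

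LPCAT1 was the one distal lung gene expressed at a substantial level in both lines. It encodes the acyltransferase that makes dipalmitoyl phosphatidylcholine, the main surfactant lipid, and it is also used outside the lung. It had 2105, 2196 and 2034 counts in A549, against 1678, 1455 and 2263 in H23. In TPM it was 24.20, 23.96 and 25.63 in A549 (mean 24.6 ± 0.903) and 17.15, 20.57 and 22.60 in H23 (mean 20.1 ± 2.75, SD, n = 3 each). A549 lay above H23 in every library, with H23 replicate 1 lowest. In CPM, which is scaled to the library and not to length, the means were 87.6 ± 0.124 in A549 and 48.7 ± 4.47 in H23. The log2 fold was 0.85 ± 0.09 (SE), or 1.8-fold higher in A549, with an adjusted p of 0.000141 by edgeR. On the log2(TPM + 1) scale the difference was 0.29 with an adjusted p of 0.0525 by limma, which did not pass; all genes had a median of -0.41 there, and LPCAT1 stood 0.7 above it, against 0.88 above the median in CPM. Its mean TPM was higher than that of 86.8% of listed genes in A549 and 81.5% in H23. The stretch before its start is shown beside those of NKX2-1 and SFTPB for its contrast in base composition: the 300-base window is 80.0% G and C, against a median of 58.7% over all windows, and it holds no CAAG and so has no capitals.
LPCAT1 upstream of its start, chr5:1523978-1524210, GRCh38.p14, minus strand: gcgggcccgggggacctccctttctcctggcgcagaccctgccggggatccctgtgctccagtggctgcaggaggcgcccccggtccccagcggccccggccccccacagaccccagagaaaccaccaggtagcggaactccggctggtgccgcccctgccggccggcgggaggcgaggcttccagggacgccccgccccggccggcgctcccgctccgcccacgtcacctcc

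**Figure D3:**
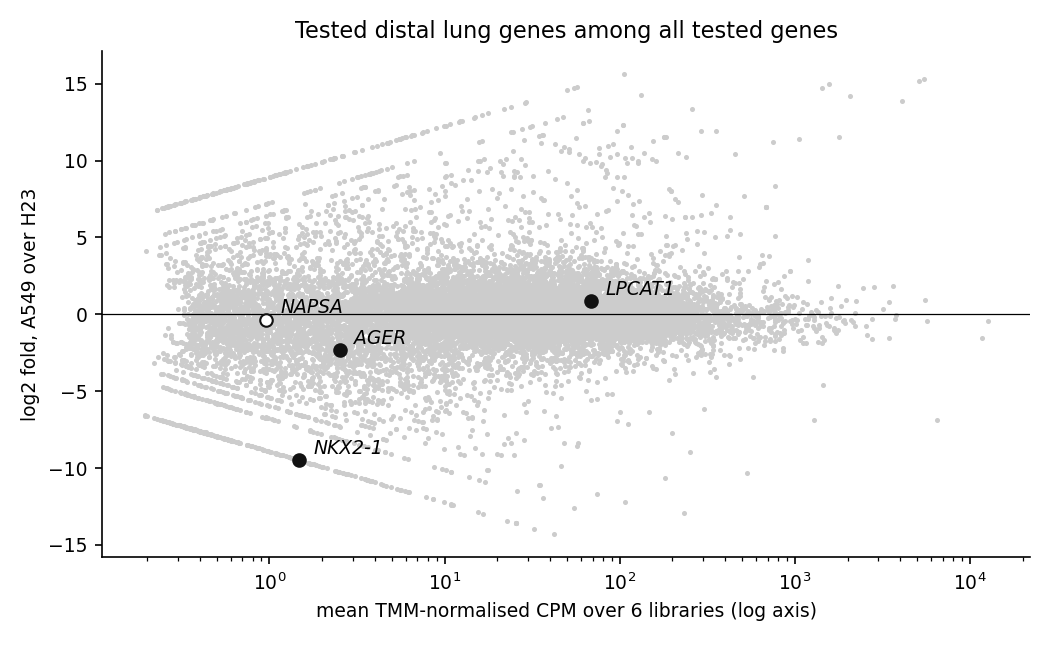
Log2 fold (A549 over H23) against mean CPM over the 6 libraries (log axis) for all tested genes (grey), with the 4 tested distal lung genes labelled; filled points passed edgeR's test and the open one did not, and NKX2-1 entered the test through H23 alone. LPCAT1 lies above 0 at a high level, NAPSA near 0, and AGER and NKX2-1 below 0 at low levels.

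SLC34A2, the sodium-phosphate cotransporter of type 2 cells, had 0, 0 and 1 counts in A549 and 0 in each H23 library. HOPX, a homeodomain-only protein of type 1 cells, had 0 in each A549 library and 1, 0 and 2 in H23. AQP5, the apical water channel of type 1 cells, had 0 in each A549 library and 0, 0 and 2 in H23. All 3 genes were at or under 3 counts per library in both lines, so no difference was detectable at this depth and none was tested.

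AGER, the receptor for advanced glycation end products, is among the genes most enriched in type 1 cells; it was lower in A549. It had 23, 26 and 11 counts in A549, against 201, 116 and 148 in H23. In TPM it was 0.69, 0.77 and 0.40 in A549 (mean 0.62 ± 0.195) and 5.37, 4.29 and 3.91 in H23 (mean 4.52 ± 0.757, SD, n = 3 each). The lines did not overlap, and H23 replicate 1 was highest. The log2 fold in CPM was -2.35 ± 0.31 (SE), or 5.1-fold lower in A549, with an adjusted p of 0.000405 by edgeR; without H23 replicate 1 it was -2.14. It was the second highest of the 10 genes in H23, in TPM, after LPCAT1.

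Most AGER counts in both lines lay on a transcript that RefSeq lists as non-coding. Of 10 RefSeq transcripts of AGER in the tables, 6 had counts. NR_038190 took 82.7%, 66.6% and 0% of the estimated counts in A549 replicates 1, 2 and 3, and 77.7%, 79.0% and 68.6% in H23 replicates 1, 2 and 3. In A549 replicate 3 the coding NM_001136 took 99.8%, of 11 counts in all. The tables list 70 entries for these transcripts, 7 copies of each, because the build holds other versions of this region of chromosome 6, and RSEM divided reads among copies and transcripts.

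AGER lies between PBX2, a homeodomain factor just upstream on the same strand, and RNF5, a ubiquitin ligase, with AGPAT1, another acyltransferase, close by; these neighbours were chosen after their values were seen. PBX2 and AGPAT1 were lower in A549, as AGER was, and so were 39.6% of all tested genes. RNF5 was lower too, but it entered the test through H23 alone, so that it differed was fixed by the filter. PBX2 had 7.70, 6.83 and 7.48 TPM in A549 and 41.56, 58.96 and 66.54 TPM in H23 (log2 fold -2.36 ± 0.15, adjusted p = 1.25e-05, edgeR). AGPAT1 averaged 11.9 ± 0.964 TPM in A549 and 149 ± 17.9 TPM in H23 (-3.01 ± 0.10, adjusted p = 8.75e-07, edgeR). RNF5 had 0, 0 and 0.65 TPM in A549 and 5.85, 3.68 and 4.67 TPM in H23 (-4.00 ± 0.87). It passed the filter on low counts through H23 alone, so no p is given for it. Its counts were divided by RSEM and in A549 lay in replicate 3 alone (13.08); without that library the fold was -9.55, and over all such omissions it was between -9.55 and -3.38. AGER counts were 4.29%, 5.19% and 2.32% of those of PBX2 in A549, and 6.17%, 3.47% and 2.77% in H23, so the lines overlapped in this share. Whether reads that run past the end of PBX2 add to AGER, and on which of its transcripts, was not tested. The stretch before the AGER start that lies outside annotated exons is shown for this closeness, with CAAG or CTTG in capitals; its 300-base window holds CAAG 2 times.
AGER upstream of its start, chr6:32184325-32184503, GRCh38.p14, minus strand: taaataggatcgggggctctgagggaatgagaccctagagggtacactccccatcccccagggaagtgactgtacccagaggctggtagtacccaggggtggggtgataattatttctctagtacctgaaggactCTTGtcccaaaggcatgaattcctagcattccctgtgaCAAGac

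**Figure D4:**
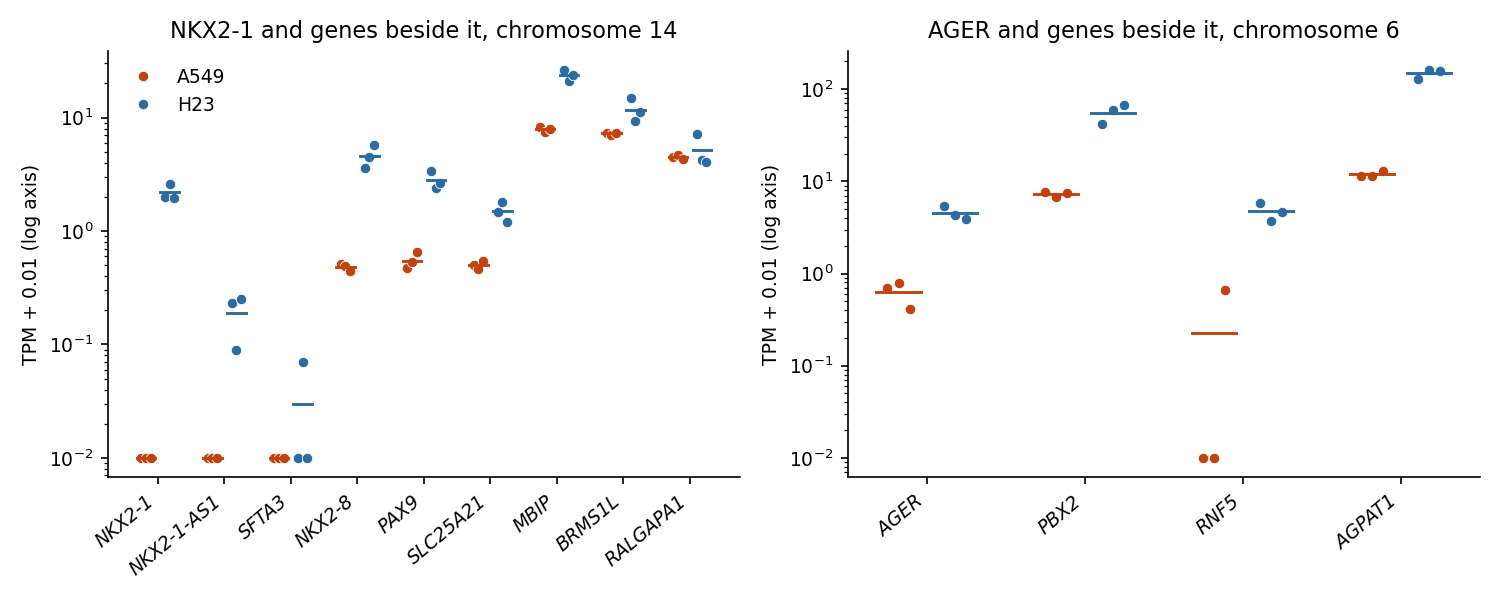
TPM + 0.01 (log axis) in each library of NKX2-1 and AGER with the genes beside them, A549 left of H23; points are libraries and bars are means. PBX2, AGPAT1 and RNF5 lie lower in A549 as AGER does, and NKX2-8, PAX9 and MBIP lie lower in A549 but above 0.

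Of 8 listed ligands and partners of AGER protein, 3 passed the filter: 1 was higher in A549 and 2 were lower. By comparison, 37.6% of all tested genes were higher in A549 and 39.6% lower. HMGB1, a nuclear protein that activates AGER when released, averaged 116 TPM in A549 and 276 TPM in H23 (log2 fold -0.70 ± 0.14, adjusted p = 0.00247, edgeR). DIAPH1, a formin that binds the AGER cytoplasmic tail, averaged 10.2 TPM in A549 and 95.6 TPM in H23 (-2.66 ± 0.17, adjusted p = 1.04e-05, edgeR). The ligand S100P was higher in A549, at 6.11 TPM, against 0.0767 TPM in H23. It passed the filter through A549 alone, so no p is given for it. H23 had 2 counts of S100P, both in replicate 1, so its size is loose: the counting ratio of A549 over H23 was 104 with a 95% interval of 28.2 to 865, and the log2 fold of 6.41 became 8.77 without that library. S100A12, S100B and S100A8, also ligands, had no count in either line.

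In the level order by mean TPM, LPCAT1 led in both lines. In A549 it was followed by NAPSA (0.65 ± 0.122) and AGER (0.62 ± 0.195), whose libraries overlapped, and then by SFTPD, SFTPB and SFTPC, all under 0.1 TPM on average. In H23 it was followed by AGER (4.52 ± 0.757), NKX2-1 (2.18 ± 0.373) and NAPSA (1.20 ± 0.265), with no overlap between neighbours in this order, and then by SFTPD, at most 0.41 TPM.

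Some relatives of these genes by family or by name, known from other tissues, had a level of 1 TPM or more: 12 of 23 in each line. Of the 23, 2 had no count in any library (SLC34A1 and AQP9), 9 were not tested and 14 were. Of the 14 tested, 5 were higher in A549, 5 were lower and 4 did not pass. Among all tested genes 37.6% were higher and 39.6% lower. The median log2 fold of these relatives was 0.18, against -0.03 over all tested genes. Among the other genes with the LPCAT name, LPCAT3 was lower in A549 (-1.69 ± 0.14, adjusted p = 4.11e-05, edgeR). LPCAT3 averaged 20.5 ± 0.982 TPM in A549 and 97.1 ± 21.1 TPM in H23. LPCAT4 was also lower in A549, at 9.37 ± 1.17 TPM against 29.5 ± 2.27 TPM in H23 (-1.10 ± 0.12, adjusted p = 0.000174, edgeR). LPCAT2 averaged 3.91 ± 0.208 TPM in A549 and 3.81 ± 0.505 TPM in H23, with a log2 fold of 0.58 in CPM and 0.03 on the log2(TPM + 1) scale, where it did not pass. The phosphate transporter SLC20A1, a gene used in most cells, averaged 65.5 TPM in A549 and 60.5 TPM in H23, while SLC34A2 was all but absent. The water channel AQP3 averaged 3.83 ± 0.259 TPM in A549 and 0.463 ± 0.121 TPM in H23 (3.61 ± 0.20, adjusted p = 5.22e-06, edgeR), and AQP5 had at most 2 counts in a library.

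Other genes of type 2 cells differed in both directions. Of 26 listed, 16 were tested: 8 were higher in A549, 6 were lower and 2 did not pass, with a median log2 fold of 0.63. Among all tested genes 37.6% were higher and 39.6% lower, with a median of -0.03. ABCA3, the lipid transporter of lamellar bodies, averaged 9.71 ± 0.542 TPM in A549 and 7.75 ± 2.62 TPM in H23 (log2 fold 0.89 ± 0.22, adjusted p = 0.00814, edgeR), and on the log2(TPM + 1) scale it did not pass (0.34, adjusted p = 0.212, limma). LAMP3, a lamellar body membrane protein, was nearly absent from A549, at 0.02 ± 0.01 TPM against 1.24 ± 0.0666 TPM in H23. It had 1, 2 and 1 counts in A549. FGFR2, the receptor for growth factors of the alveolar mesenchyme, averaged 0.04 TPM in A549 and 2.8 TPM in H23, with 5, 4 and 1 counts in A549. Both passed the filter on low counts through H23 alone, so no p and no fitted fold are given. LRRK2, a kinase abundant in type 2 cells, averaged 6.36 ± 0.243 TPM in A549 and 0.08 ± 0.01 TPM in H23 (6.83 ± 0.15, adjusted p = 2.2e-07, edgeR). SCD, a fatty acid desaturase that many cells use, averaged 169 ± 9.55 TPM in A549 and 50.3 ± 17.7 TPM in H23 (2.32 ± 0.24, adjusted p = 0.000119, edgeR).

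Type 1 cell genes were more often higher in A549 than lower, but PDPN and CLIC5, which mark these cells, were not among them. Of 24 listed, 17 were tested: 11 were higher in A549, 3 were lower and 3 did not pass. Over all tested genes 37.6% were higher and 39.6% lower. The median log2 fold of the list was 1.64, against -0.03 over all tested genes. On the log2(TPM + 1) and log2(TPM + 0.1) scales the list had 9 higher and 5 lower (limma). CAV1, the caveola coat protein, averaged 294 ± 4.52 TPM in A549 and 128 ± 7.25 TPM in H23 (1.78 ± 0.09, adjusted p = 3.79e-06, edgeR), and CAV2, its partner, had a log2 fold of 2.52. KRT7, a keratin of simple epithelia, had the largest positive fold of the list (11.56); it resembles other keratins in sequence, and its estimated counts were not whole. SPOCK2, a proteoglycan of the matrix, was lower in A549, at 0.197 ± 0.0551 TPM against 331 ± 132 TPM in H23 (-10.30 ± 0.43, adjusted p = 2.02e-06, edgeR), and the adhesion molecule ICAM1 was lower too (-6.38 ± 0.14, adjusted p = 2.13e-07, edgeR). PDPN, a defining surface protein of type 1 cells, had no count in either line, and CLIC5 had 0 counts in A549 and 6 in H23. CAV1, CAV2 and KRT7 are also made by many cells outside the alveolus.

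The factors that act with NKX2-1 on surfactant genes were detected in both lines, also in A549, where NKX2-1 was listed at 0. FOXA2 averaged 14.8 ± 0.538 TPM in A549 and 0.333 ± 0.0379 TPM in H23, a log2 fold of 6.03 ± 0.14 (SE). FOXA1 averaged 4.45 ± 0.121 TPM in A549 and 1.69 ± 0.214 TPM in H23 (1.95 ± 0.12, adjusted p = 9.43e-06, edgeR). CEBPA averaged 3.11 ± 0.3 TPM in A549 and 2.91 ± 0.42 TPM in H23; its log2 fold in CPM was 0.65 ± 0.13 (adjusted p = 0.00291, edgeR), and on the log2(TPM + 1) scale 0.08, which did not pass. GATA6 averaged 0.71 ± 0.17 TPM in A549 and 0.813 ± 0.208 TPM in H23 and did not pass (0.33 ± 0.28, adjusted p = 0.308, edgeR); its sign turned on the log2(TPM + 1) scale (-0.08), and without H23 replicate 1 it passed (0.62, adjusted p = 0.0109, edgeR). NR3C1, the glucocorticoid receptor, through which steroids raise surfactant synthesis, averaged 48.0 TPM in A549 and 7.03 TPM in H23 (3.31 ± 0.09, adjusted p = 3.34e-07, edgeR). Over the whole list of 25 regulators, 22 were tested, with a median log2 fold of 0.49, against -0.03 over all tested genes. Of all tested genes, 37.6% were higher in A549 and 39.6% lower. Of the 22 regulators, 11 were higher in A549, 6 were lower and 5 did not pass. That count holds TTF2 (0.73), which encodes a transcription termination factor and not NKX2-1, whose protein is also called TTF-1.

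In mice, lung tumour cells that lose Nkx2-1 switch on genes of the stomach and gut. Of a list of foregut, gut and liver genes, liver and gut regulators and fibrinogen chains were higher in A549, while several stomach genes were absent from both lines or not tested. Of 22 listed, 15 were tested: 11 were higher in A549, 3 were lower and 1 did not pass, with a median log2 fold of 5.61. Over all tested genes 37.6% were higher and 39.6% lower, with a median of -0.03. HNF4A, a nuclear receptor of gut and liver epithelium, had 13.92, 12.91 and 14.27 TPM in A549 and 0.01, 0.01 and 0.03 TPM in H23. The lines lay far apart for HNF4A, which had 1, 1 and 3 counts in H23. It passed the filter on low counts through A549 alone, so no p and no fitted fold are given. FGA, a fibrinogen chain made in liver, averaged 15.1 ± 1.25 TPM in A549 and had no count in H23, at least 1100-fold higher in A549. CDX2, the intestinal homeodomain factor, went the other way, at 0.133 TPM in A549 against 2.76 TPM in H23. It had 9, 9 and 12 counts in A549 and passed the filter through H23 alone, so no fitted fold is given. PDX1, a factor of the foregut and pancreas, was lower too, with 2 counts in all in A549 and 33, 19 and 32 in H23. Of the stomach genes, MUC5AC, a gastric and airway mucin, was at least 89.5-fold higher in A549. TFF1 had 5, 8 and 10 counts in A549 and none in H23, and GKN2 had 6, 9 and 16 counts in A549 and 1, 0 and 0 in H23; both lay under the filter. TFF2 and CTSE had no count in any library, TFF3 had 1 count, in A549, and the lines overlapped for LGALS4 and GKN1. Since these data hold 1 line with NKX2-1 and 1 without, a relation between NKX2-1 and these genes cannot be told apart from any other difference between the lines.

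**Figure D5:**
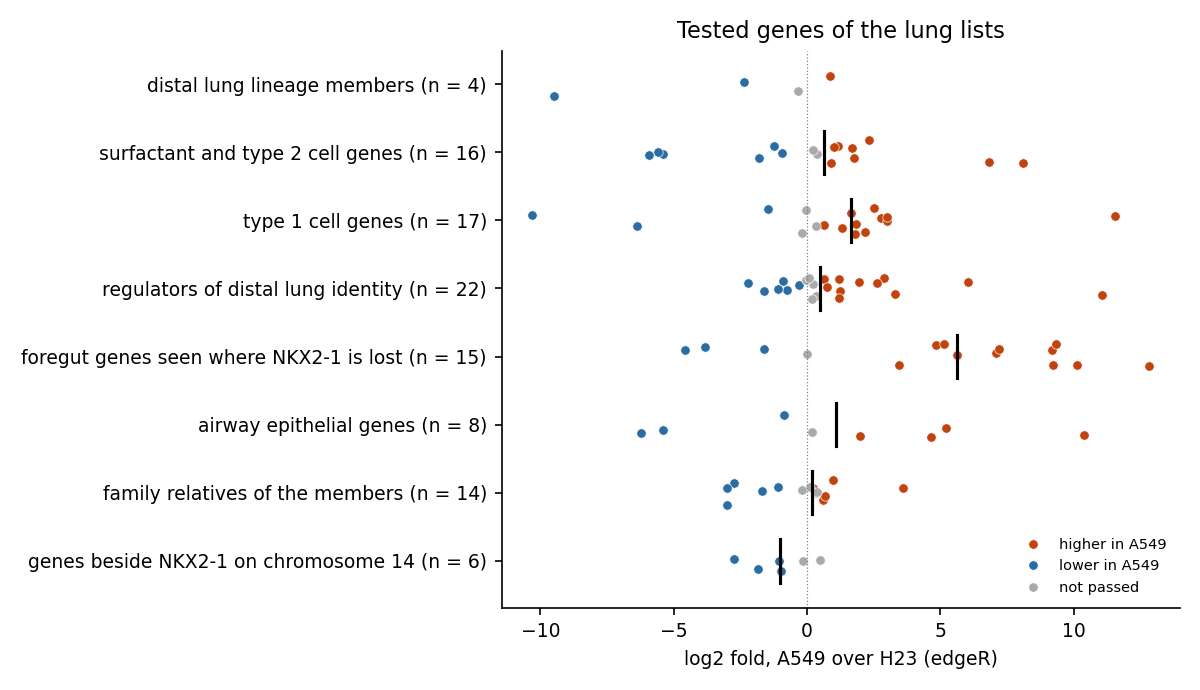
Log2 fold (A549 over H23) of each tested gene of the lists around the distal lung genes, each point 1 gene, coloured by edgeR's call, with the median as a black bar for each list other than the distal lung genes themselves. The foregut list lies highest, with a median of 5.61, and the genes beside NKX2-1 have a median of -1.01.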

How the data were processed

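RNA was sequenced from 3 cultures of A549 and 3 of H23, grouped by the labels. Per the submitters' processing notes, the tools were STAR 2.6.0c and RSEM 1.3.0 and the build was hg19; options, strand setting and annotation release are not given in the sources used here. Per the file headers, the authors deposited RSEM expected counts for genes and transcripts, unscaled. TPM, as deposited, is scaled by RSEM for length and depth. FPKM, also deposited, entered no result. Percent columns, as deposited, hold the share of a gene carried by a transcript; shares printed here are of estimated counts. The deposited lengths, in bases, served only for floors and transcript lengths.

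Expected counts were rounded and fitted across all genes with edgeR 4.0.16 (R 4.3.3): filterByExpr (15426 genes kept), TMM factors of 0.985 to 1.02, robust quasi-likelihood F test, line as the only term, Benjamini-Hochberg adjustment over all tested genes, threshold 0.05. Log2 folds are A549 over H23 in TMM-normalised CPM, with approximate standard errors. The counts of calls for the lists and for all genes include genes that passed the filter through 1 line alone. The common biological coefficient of variation was 0.168. The script was tested on simulated data. Where a line had no count, the fold was taken against 3 counts over its 3 libraries. Intervals (exact binomial, 95%) and floors cover counting error only. Alternatives used limma 3.58.1 on log2(TPM + 1) and log2(TPM + 0.1), and DESeq2 1.42.0.

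The members and lists were chosen with earlier results of these data known. Beside the 10 members, the text names up to 4 genes per list and direction by size of fold, if they passed, the lines did not overlap and the higher line had at least 1 TPM, plus set markers; some are left undescribed, and names outside this rule were picked with values known. Promoter sequence is from RefSeq GRCh38.p14 and is not in the build of the files; 9 of the 10 members had 14 windows, and SFTPC is not described there.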

Additional observations from a re-analysis of the deposited data

How the results depend on the processing

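Each result was recomputed under 14 other settings. For the 66 named and tested genes, 899 of 924 values kept their direction and side of the threshold, 20 kept the direction and no longer passed, 3 newly passed and 2 changed sign. On both log2(TPM) scales no distal lung gene was called higher (0, and 3 lower, NKX2-1 among them): LPCAT1 no longer passed (0.29 with adjusted p = 0.0525 on log2(TPM + 1), 0.30 with adjusted p = 0.0531 on log2(TPM + 0.1), limma), and NAPSA passed (-0.41 with adjusted p = 0.00944, and -0.78 with adjusted p = 0.0107, limma). The median of all tested genes moved to -0.41 and -0.54 there, against -0.03 in CPM and -0.16 with upper quartile factors, and the calls split into 3869 higher and 8356 lower on log2(TPM + 1) and 3864 higher and 8366 lower on log2(TPM + 0.1), against 5801 higher and 6109 lower in CPM. GATA6 changed sign (-0.08 and -0.17). On both scales the relatives had 1 higher and 8 lower, the type 1 list 9 higher and 5 lower, the epithelial list 1 higher and the blood list 1 lower. The cause was not tested. With no filter on low counts, 2 distal lung genes were higher (SFTPB joined LPCAT1), and the endothelial list had 1 higher and 1 lower.

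Leaving out 1 library at a time gave 5372 to 6839 genes higher and 5665 to 6935 lower, the most without H23 replicate 1, and changed no call among the 4 tested distal lung genes. AGER ranged between -2.53 and -2.05. Over these fits the blood list had 0 to 1 higher and 0 to 1 lower, the endothelial list 0 to 1 lower, and the genes beside NKX2-1 0 to 1 higher, the last without H23 replicate 1.

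The labels number the cultures of each line alike. Same-numbered libraries did not deviate together (r = 0.025, -0.0389 and 0.0544), and the main fit did not pair them. With 3 libraries per line this cannot exclude that cultures of the same number were handled together. With the replicate block 5798 genes were higher and 5893 lower, and 1 distal lung gene was higher and 2 lower, NKX2-1 among them. Depth limits SFTPB, SFTPC, SFTPD, SLC34A2, HOPX and AQP5, which had at most 12 counts in a library; the SFTPB ratio in particular rests on 13 counts in A549 and 3 in H23.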

Other observations

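Airway genes also differed in both directions. Of 16 listed, 8 were tested: 4 were higher in A549, 3 were lower and 1 did not pass, with a median log2 fold of 1.08. Among all tested genes 37.6% were higher and 39.6% lower, with a median of -0.03. AGR2, a protein of mucous cells, averaged 154 TPM in A549 and 0.163 TPM in H23, where it had 5, 3 and 1 counts. It passed the filter through A549 alone, so no fitted fold is given. FOXJ1, the factor of ciliated cells, went the other way, at 0.18, 0.18 and 0.21 TPM in A549 against 18.90, 21.90 and 22.47 TPM in H23 (-6.22). Secretory markers SCGB1A1, SCGB3A1 and SCGB3A2 and the basal keratins KRT5 and KRT14 had no count in either line. These 5 were chosen after their values were seen, and other genes of the list had counts. TP63 averaged 1.2 TPM in A549 and 0.06 TPM in H23, and NGFR 0.05 TPM in A549 and 3.13 TPM in H23. MUC5B had 17, 21 and 18 counts in A549 and 0, 2 and 1 in H23. TPPP3 did not pass (0.18, adjusted p = 0.567, edgeR). CAPS was lower in A549 (-0.85, adjusted p = 0.0286, edgeR), but not in every fit with a library left out.

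Of the markers of other cells, 0 of 2 tested blood genes passed and no endothelial gene passed the filter. Of 4 tested fibroblast genes, 2 were lower in A549 and 2 did not pass, with summed TPM of 2.25 to 3.02 in A549 and 6.35 to 10.2 in H23. Of 5 epithelial genes, 2 were higher in A549 (KRT19 and KRT8), 2 were lower (CDH1 and EPCAM) and KRT18 did not pass (0.07, adjusted p = 0.435, edgeR).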
